A study of Mus musculus with 19 samples.

Results

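Complement was followed here through 34 genes of the cascade, its regulators and its receptors in mouse liver. They were taken by name from the pathway, with earlier results of these data known. On these arrays 31 of the 34 were measured, among 22180 genes in all. By their main source in liver, 19 of the measured genes were counted as made by hepatocytes, 9 by macrophages and other leukocytes, and 3 by other or by many cells. C3 and Cfd, to which no probe set is annotated here, and Masp2, whose probe set is shared with another gene, were not analysed here.

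The series, titled on the Kielin/chordin-like protein KCP, holds whole-liver RNA of 19 mice aged 2 to 3 months, each on 1 one-colour Affymetrix array. The 6 groups combined 3 genotype codes with 2 diets given for 4 weeks, a high-fat diet (HFD) and a normal diet (ND). There were 4 arrays of TG HFD and 3 each of TG ND, KO HFD, KO ND, WT HFD and WT ND. The labels name neither the allele nor the promoter behind the TG and KO codes, and give no strain, sex, litter or time of harvest. Animal numbers differed in style between the diets and mostly ran together within a genotype, so that cohort cannot be told apart from diet or genotype. That the replicates are separate animals rests only on the animal numbers in the titles, which differ throughout. If they were not, the p-values measure a spread that may be partly technical.

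Complement is a set of plasma proteins that act in a chain. Recognition proteins such as C1q, the mannose-binding lectins and the ficolins switch on proteases that cut C4, C2 and C3, and the cleavage of C5 starts a pore of C6, C7, C8 and C9 in the target membrane. Most of the plasma proteins come from hepatocytes, while C1q, properdin and, in the mouse, ficolin A come largely from macrophages, which in liver are the Kupffer cells. Values below are log2 values of the 1 probe set of each gene. Differences are on the same scale, so that 1 stands for a 2-fold change, and are called when the adjusted p of the limma model is under 0.05. Levels of different genes are not set against each other, since each probe set has its own response.

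Kcp averaged 5.66 ± 0.13 in TG HFD and 5.56 ± 0.19 in TG ND, against 2.23 ± 0.40 in WT HFD and 2.55 ± 0.23 in WT ND (log2, mean ± SD). It averaged 2.01 ± 0.14 in KO HFD and 2.03 ± 0.34 in KO ND, and the differences from WT of −0.22 and −0.52 were not called (adjusted p = 0.844 and 0.215). Where the probe set lies in the gene is not given in the sources used here, so it is no check of the KO label. The 8 measured hepatocyte markers averaged between 9.81 and 10.25 per array, and none was called in any comparison. WT HFD replicate 1 and TG HFD replicate 2 had the lowest mean correlations with the arrays of other groups, 0.9633 and 0.9651. The mean of 10 neutrophil markers was 2.07 in TG HFD replicate 2, and in the other arrays it lay between 0.56 and 0.98.

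Stretches of 250 bases upstream of 8 genes called between TG and WT are shown, 4 macrophage-made and 4 hepatocyte-made, so that the letters can be read beside the values. They are from RefSeq (GRCm38.p6), 5′ to 3′ on the strand of the gene and ending at the base before the annotated start. Capitals mark GAGGAA, the core of sites of the myeloid factor PU.1, and GTTAAT, one arm of the site of the hepatocyte factor HNF1, each on either strand (TTCCTC and ATTAAC on the other). No overlap between matches of different motifs was found in these 8 sequences. C6 holds neither motif, and Cfp, though macrophage-made, holds GTTAAT and no GAGGAA.
C1qb, chr4:136886201-136886450, minus strand: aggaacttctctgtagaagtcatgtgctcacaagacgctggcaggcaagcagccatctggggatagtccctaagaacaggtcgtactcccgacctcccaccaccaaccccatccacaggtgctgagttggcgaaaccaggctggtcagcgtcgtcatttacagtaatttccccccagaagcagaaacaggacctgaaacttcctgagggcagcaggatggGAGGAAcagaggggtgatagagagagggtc
C1qc, chr4:136892915-136893164, minus strand: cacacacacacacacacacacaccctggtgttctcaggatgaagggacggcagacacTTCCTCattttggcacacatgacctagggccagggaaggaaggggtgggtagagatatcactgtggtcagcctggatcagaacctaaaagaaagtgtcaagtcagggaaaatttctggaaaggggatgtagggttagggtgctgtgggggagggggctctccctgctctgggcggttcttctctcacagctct
Fcna, chr2:25627975-25628224, minus strand: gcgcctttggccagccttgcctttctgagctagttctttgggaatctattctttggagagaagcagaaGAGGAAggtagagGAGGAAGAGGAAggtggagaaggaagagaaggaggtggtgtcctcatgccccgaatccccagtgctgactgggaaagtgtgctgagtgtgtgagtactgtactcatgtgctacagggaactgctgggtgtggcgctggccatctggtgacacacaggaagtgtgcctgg
Cfp, chrX:20931556-20931805, minus strand: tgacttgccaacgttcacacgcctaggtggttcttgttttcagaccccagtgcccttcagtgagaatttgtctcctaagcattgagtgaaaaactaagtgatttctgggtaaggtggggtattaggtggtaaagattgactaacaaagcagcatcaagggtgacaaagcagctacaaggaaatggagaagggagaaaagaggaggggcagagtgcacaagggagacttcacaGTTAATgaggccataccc
C8b, chr4:104766067-104766316, plus strand: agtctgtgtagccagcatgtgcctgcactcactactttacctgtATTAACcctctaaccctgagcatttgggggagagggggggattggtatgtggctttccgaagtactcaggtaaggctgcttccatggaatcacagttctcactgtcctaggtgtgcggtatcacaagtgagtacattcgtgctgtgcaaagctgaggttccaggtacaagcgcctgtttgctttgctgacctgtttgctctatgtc
C8a, chr4:104876399-104876648, minus strand: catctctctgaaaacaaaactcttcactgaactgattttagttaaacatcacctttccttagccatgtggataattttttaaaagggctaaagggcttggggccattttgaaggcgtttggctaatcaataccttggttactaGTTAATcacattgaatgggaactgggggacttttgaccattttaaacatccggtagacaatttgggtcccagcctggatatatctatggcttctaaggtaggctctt
Hc, chr2:35061413-35061662, minus strand: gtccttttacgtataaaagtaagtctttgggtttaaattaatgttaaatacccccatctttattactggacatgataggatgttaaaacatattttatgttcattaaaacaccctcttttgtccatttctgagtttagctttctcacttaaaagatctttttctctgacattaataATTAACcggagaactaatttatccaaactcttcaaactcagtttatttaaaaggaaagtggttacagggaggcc
C6, chr15:4726960-4727209, plus strand: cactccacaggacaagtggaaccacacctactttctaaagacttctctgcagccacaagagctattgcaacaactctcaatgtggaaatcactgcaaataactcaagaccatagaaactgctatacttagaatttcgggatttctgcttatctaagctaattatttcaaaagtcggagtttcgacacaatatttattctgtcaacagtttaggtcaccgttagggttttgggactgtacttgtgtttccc

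Of the 31 measured genes 22 had an upstream sequence in the table, and C1qa, C2, C4a and C4b were not among them. C1ra and Vtn, also called between TG and WT, had 1 match to GTTAAT each and are not shown. GAGGAA stood in 4 of 8 macrophage-made and 0 of 11 hepatocyte-made genes, against 23.1% of all 27025 upstream sequences of this length. GTTAAT stood in 1 of 8 macrophage-made and 6 of 11 hepatocyte-made genes, against 6.52% of all. TTGCNNAA, a form of the C/EBP site searched in the same way, stood in 0 of 8 and 1 of 11, against 9.55% of all. A match is a run of letters and does not show binding, and the motifs were picked after the values were seen.

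Between genotypes, C1q, ficolin A, properdin and C4a were higher in TG than in WT liver on both diets, and none of the measured genes was called lower there, against 0.379% of all genes on ND and 1.88% on HFD. On ND, 6 of 31 genes were called higher in TG, which compares with 0.924% of all genes. Those 6 were the 3 C1q chains, Fcna, Cfp and C4a. On HFD, 13 of 31 were called higher, which compares with 1.68% of all genes. They were the same 6 genes with C2, C1ra, Hc, C6, C8a, C8b and Vtn. The median difference of the 31 genes was 0.22 on ND and 0.39 on HFD, while the median over all genes was 0.00 on both. A mean below 2 was found in 3 of the 31 genes and in 56.5% of all genes. The shares and medians over all genes are thus not those of genes of like signal. By source, 5 of 9 macrophage-made genes were called higher on each diet, with medians of 1.09 on ND and 0.85 on HFD. Of the 19 hepatocyte-made genes 1 was called higher on ND and 8 on HFD, with medians of 0.18 and 0.38. The number of calls on the diets differs, but the diet effect in TG minus that in WT was called for 0 of 31 genes, and for 0.221% of all genes. At an unadjusted p under 0.05, 6 of 31 genes passed in that test, against 7.87% of all genes. The heat map of differences sets these 31 genes side by side.

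**Figure D1:**
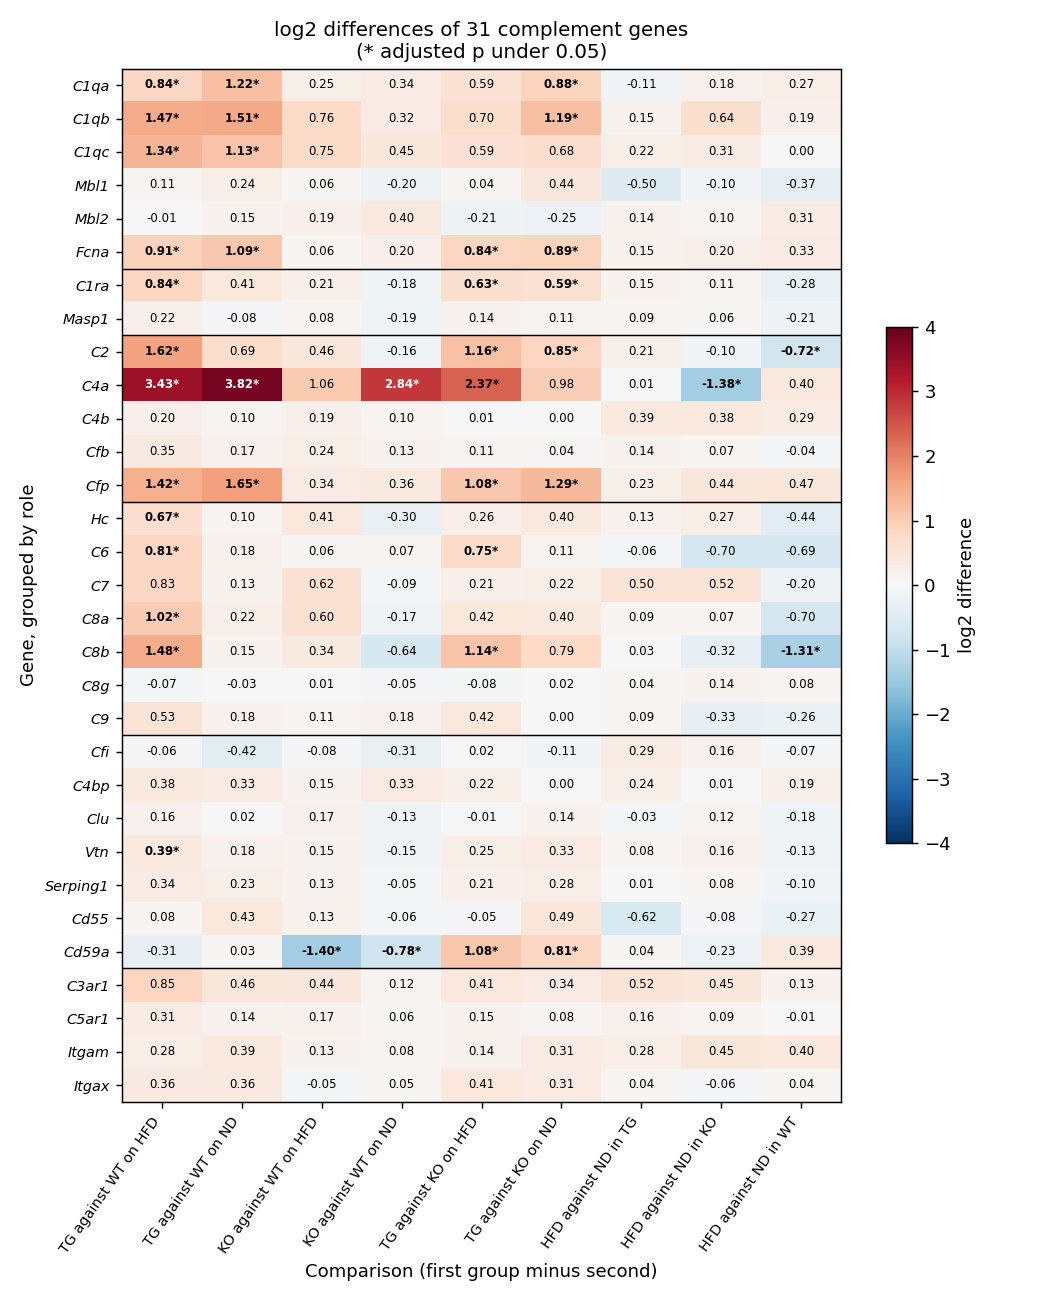
Log2 differences of the 31 measured complement genes (rows, grouped by role) in the comparisons of 2 groups (columns), first-named group minus second, with calls at adjusted p under 0.05 marked. The columns of TG against WT hold 6 marked genes on ND and 13 on HFD, all positive, and the KO against WT columns hold C4a on ND and Cd59a on both diets.

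C1q, the recognition protein of the classical pathway, is built from 3 chains encoded side by side on chromosome 4. C1qa had log2 values of 5.76, 5.37, 5.45 and 5.30 in TG HFD, 4.68, 5.00 and 4.96 in KO HFD and 4.90, 4.39 and 4.63 in WT HFD livers. On ND, C1qa had 5.00, 5.87 and 5.88 in TG ND, 5.07, 4.51 and 4.53 in KO ND and 4.47, 4.22 and 4.39 in WT ND livers. Every TG array was above every WT array of the same diet, while the TG and KO arrays overlapped on ND. C1qa was higher in TG than in WT by 1.22 (SE 0.22, adjusted p = 0.00508) on ND and by 0.84 (SE 0.20, adjusted p = 0.0255) on HFD. The second of these calls was lost without WT HFD replicate 2, WT HFD replicate 3 or TG HFD replicate 1 (differences 0.71 to 0.83, adjusted p-values 0.0782 to 0.112).

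C1qb had log2 values of 7.35, 7.50, 6.86 and 6.71 in TG HFD, 6.33, 6.48 and 6.40 in KO HFD and 5.54, 5.29 and 6.08 in WT HFD livers. On ND, C1qb had 6.59, 6.95 and 7.33 in TG ND, 6.23, 5.39 and 5.69 in KO ND and 5.44, 5.61 and 5.30 in WT ND livers. On both diets all TG arrays lay above all KO and WT arrays. KO HFD arrays also lay above all WT HFD arrays, without a call. The difference between TG and WT was 1.51 (SE 0.25, adjusted p = 0.00268) on ND and 1.47 (SE 0.23, adjusted p = 0.00122) on HFD, a 2.84-fold and a 2.77-fold higher signal in TG. C1qc had log2 values of 5.21, 4.68, 4.71 and 4.69 in TG HFD, 4.08, 4.23 and 4.38 in KO HFD and 3.41, 3.26 and 3.76 in WT HFD livers. On ND, C1qc had 4.38, 4.27 and 5.16 in TG ND, 4.12, 4.00 and 3.65 in KO ND and 3.75, 3.46 and 3.21 in WT ND livers. The TG arrays again stood above all others of their diet, with TG HFD replicate 1 apart from the 3 other TG HFD arrays. As in C1qb, KO HFD arrays were all above WT HFD arrays, without a call. C1qc was higher in TG than in WT by 1.13 (SE 0.22, adjusted p = 0.0125) on ND and 1.34 (SE 0.21, adjusted p = 0.00102) on HFD. The call on ND was lost without WT ND replicate 2, WT ND replicate 3 or TG ND replicate 3 (differences 0.85 to 1.12, adjusted p-values 0.0502 to 0.0759).

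Fcna, which encodes ficolin A, a recognition protein of the lectin pathway, had log2 values of 5.56, 5.37, 5.63 and 5.60 in TG HFD, 4.43, 4.81 and 4.85 in KO HFD and 4.36, 4.79 and 4.74 in WT HFD livers. On ND, Fcna had 5.30, 5.40 and 5.49 in TG ND, 4.69, 4.18 and 4.62 in KO ND and 4.17, 4.30 and 4.44 in WT ND livers. All TG arrays lay above all KO and WT arrays of their diet. Fcna was higher in TG than in WT by 1.09 (SE 0.16, adjusted p = 0.000746) on ND and 0.91 (SE 0.15, adjusted p = 0.00151) on HFD. It was also higher in TG than in KO, by 0.89 (SE 0.16, adjusted p = 0.00242) on ND and 0.84 (SE 0.15, adjusted p = 0.00407) on HFD. The mannose-binding lectins Mbl1 and Mbl2, recognition proteins made by hepatocytes, were called in no comparison. Their group means lay between 7.25 in WT HFD and 7.86 in TG ND for Mbl1 and between 8.45 in WT ND and 8.94 in KO HFD for Mbl2.

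Cfp, which encodes properdin, the protein that steadies the convertase of the alternative pathway, had log2 values of 5.71, 6.02, 5.60 and 5.07 in TG HFD, 4.57, 4.67 and 4.32 in KO HFD and 4.22, 4.13 and 4.19 in WT HFD livers. On ND, Cfp had 4.78, 5.62 and 5.71 in TG ND, 4.07, 3.69 and 4.48 in KO ND and 3.96, 3.48 and 3.70 in WT ND livers. TG arrays were above all KO and WT arrays on both diets, and KO HFD lay above WT HFD without a call (0.34, adjusted p = 0.789). The difference between TG and WT was 1.65 (SE 0.25, adjusted p = 0.00129) on ND and 1.42 (SE 0.23, adjusted p = 0.00192) on HFD. Between TG and KO it was 1.29 (SE 0.25, adjusted p = 0.00529) on ND and 1.08 (SE 0.23, adjusted p = 0.0181) on HFD. The last of these was lost without KO HFD replicate 1, KO HFD replicate 3 or TG HFD replicate 2 (differences 0.94 to 1.10, adjusted p-values 0.0573 to 0.0930).

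**Figure D2:**
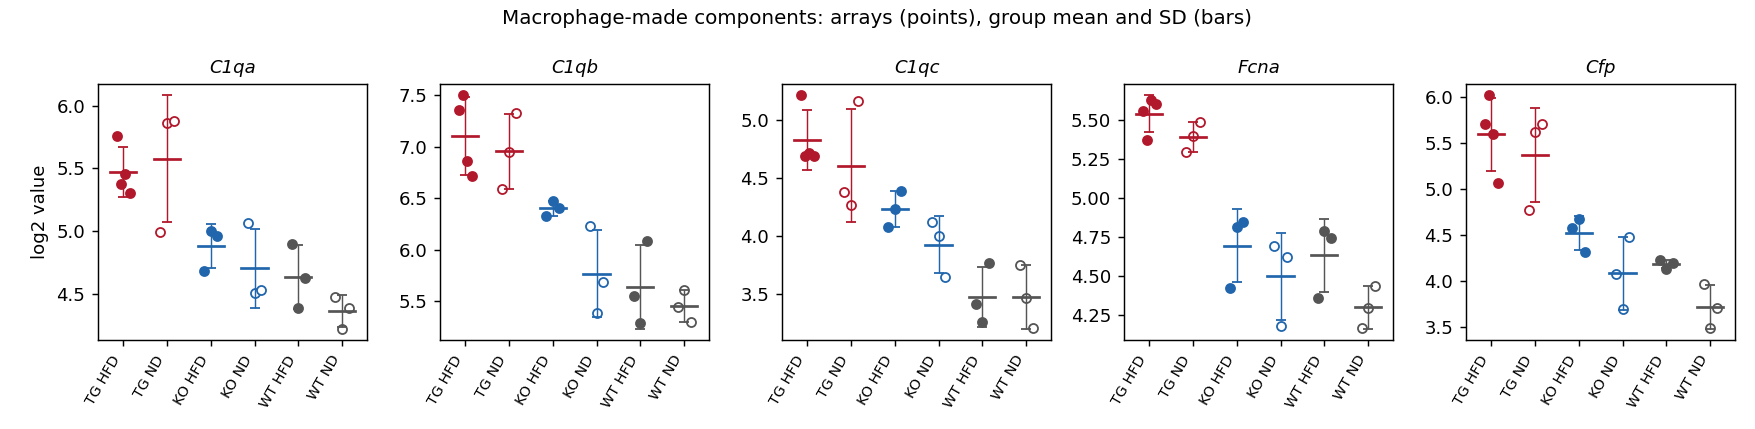
Log2 values (vertical axes, scaled for each gene) of the 5 macrophage-made genes called between TG and WT, by group. Points are arrays and bars the group mean with SD (4 arrays in TG HFD, 3 in the others). TG arrays are above WT arrays of the same diet in every panel.

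The receptors were not called in any comparison. C3ar1, the receptor of C3a, had group means between 2.78 in WT ND and 3.76 in TG HFD. C5ar1, the receptor of C5a, and Itgam and Itgax, the alpha chains of complement receptors 3 and 4, had overall means of 0.53, 1.68 and 0.90. At such dim signals background can make differences look smaller, so no difference was detectable at this signal rather than shown to be absent. Other complement genes from macrophages, outside the 34, were called between TG and WT on both diets. Vsig4, a complement receptor of Kupffer cells, was higher in TG by 1.83 (SE 0.31, adjusted p = 0.00334) on ND and 1.42 (SE 0.29, adjusted p = 0.00888) on HFD. Itgb2, the shared beta chain of receptors 3 and 4, was higher by 1.92 (SE 0.29, adjusted p = 0.00122) on ND and 1.91 (SE 0.27, adjusted p = 0.000563) on HFD.

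Markers of Kupffer cells and macrophages moved with these genes. Of 17 markers 12 were called higher in TG than in WT on ND and 14 on HFD, with median differences of 1.39 and 1.21, and none was called lower. Over all genes, 0.924% were called higher on ND and 1.68% on HFD, and 0.379% and 1.88% lower. Clec4f, a lectin of Kupffer cells, was higher in TG by 1.43 on ND (adjusted p = 0.000263) and by 1.42 on HFD (adjusted p = 0.000124). The mean of the 17 markers ranged over the arrays of TG HFD from 5.56 to 6.13, of TG ND from 5.65 to 6.16, of KO HFD from 4.75 to 5.20, of KO ND from 4.33 to 4.87, of WT HFD from 4.35 to 4.65 and of WT ND from 4.46 to 4.60. Markers of other cell types were called as well. Of 11 markers of stellate cells and fibroblasts 2 were called higher in TG than in WT on ND and 1 on HFD, of 5 monocyte markers 1 on each diet, and of 7 endothelial markers 0 on ND and 1 on HFD. Their median differences on ND and HFD were 0.37 and 0.32, 0.20 and 0.60, and 0.35 and 0.26 in that order. The shares of all genes called higher, 0.924% on ND and 1.68% on HFD, apply to these counts as well. The mean of the monocyte markers was 2.81 in TG HFD replicate 2 and at most 1.68 in the other arrays. Fat cell markers, 4 of 5 with an overall mean under 2, ran the other way on HFD. Their mean per array was 0.96 to 1.27 in TG HFD and 1.47 to 1.74 in WT HFD. On ND it was 0.79 to 1.09 in TG and 1.08 to 1.12 in WT, which overlap, and 1.69 to 1.83 in KO. Among the macrophage markers Cd14 was the dimmest, with an overall mean of 0.74. In bulk liver, fewer cells of a type and less RNA per cell cannot be told apart, and the part of any of these cell types in the results on C1q, Fcna and Cfp was not tested.

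Taken as a difference from the mean of the 17 markers in the same array, C1qa averaged −0.38 ± 0.25 in TG HFD and 0.18 ± 0.32 in WT HFD, and −0.26 ± 0.41 in TG ND and −0.16 ± 0.10 in WT ND. C1qc averaged −1.03 ± 0.29 in TG HFD and −0.98 ± 0.12 in WT HFD, and −1.23 ± 0.22 in TG ND and −1.04 ± 0.20 in WT ND. Relative to the markers both of these chains were lower in TG than in WT in their means, and C1qb was higher. C1qb averaged 1.26 ± 0.12 in TG HFD and 1.18 ± 0.27 in WT HFD, and 1.12 ± 0.16 in TG ND and 0.93 ± 0.16 in WT ND. On this scale Fcna averaged −0.31 ± 0.37 in TG HFD and 0.17 ± 0.21 in WT HFD, and −0.44 ± 0.20 in TG ND and −0.22 ± 0.21 in WT ND. Cfp averaged −0.25 ± 0.19 in TG HFD and −0.28 ± 0.16 in WT HFD, and −0.47 ± 0.40 in TG ND and −0.80 ± 0.19 in WT ND. In size, the gaps between TG and WT on this scale were smaller than those in the genes themselves, and they were not tested. The marker mean was itself higher in TG, so that taking it off lowers any difference between TG and WT. The scatter of C1q genes against markers shows the 19 arrays.

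**Figure D3:**
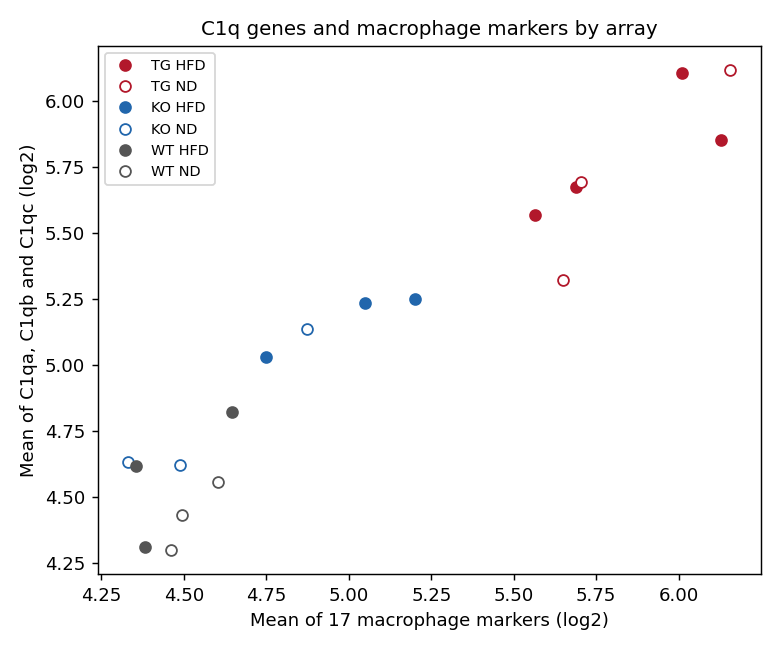
Mean log2 value of C1qa, C1qb and C1qc (vertical axis) against the mean log2 value of 17 Kupffer cell and macrophage markers (horizontal axis), 1 point per array, coloured by genotype and filled for HFD. The 7 TG arrays lie at marker means of 5.56 to 6.16, above the 6 WT arrays at 4.35 to 4.65.

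Likeness was ranked among genes with an overall mean of at least 2, with predicted genes, small RNAs and some other name families left out. Among these, the genes whose values ran most like C1qa over the 19 arrays were Clec4f (Pearson r = 0.93), Adgre1 (0.91), Siglec1 (0.91), Clec4a3 (0.91) and Ccr3 (0.90). Clec4f and Adgre1 are among the 17 markers. After the group means were removed the correlations were 0.78, 0.75, 0.72, 0.64 and 0.50 in the same order. These are descriptions over arrays that share the groups, and genes were ranked by them.

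C4a had the widest range of group means among the 31 genes. It is the mouse copy of C4 also named Slp, for sex-limited protein, lies beside C4b on chromosome 17 and is annotated as a transcribed pseudogene in the RefSeq table of GRCm38.p6. C4a had log2 values of 8.23, 8.30, 7.44 and 7.40 in TG HFD, 5.19, 5.54 and 5.69 in KO HFD and 4.01, 4.98 and 4.27 in WT HFD livers. On ND, C4a had 7.83, 7.71 and 7.97 in TG ND, 6.33, 7.18 and 7.05 in KO ND and 4.01, 4.27 and 3.78 in WT ND livers. The 3 genotypes did not overlap on either diet, with TG highest and WT lowest. Within KO, the HFD arrays were all below the ND arrays, while the diets overlapped in TG and in WT.

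C4a was 14.1-fold higher in TG than in WT on ND and 10.8-fold higher on HFD, with log2 differences of 3.82 (SE 0.28, adjusted p = 2.30e-07) on ND and 3.43 (SE 0.26, adjusted p = 8.96e-07) on HFD. In KO against WT it was 7.14-fold higher on ND (2.84, SE 0.28, adjusted p = 9.61e-06). It was the only 1 of 31 genes called higher there, which compares with 1.38% of all genes. On HFD the difference between KO and WT was 1.06 (SE 0.28, adjusted p = 0.162) and was not called. Between TG and KO it was 2.37 (SE 0.26, adjusted p = 7.81e-05) on HFD and 0.98 (SE 0.28, adjusted p = 0.0580) on ND, where it was not called.

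Between HFD and ND in KO liver, C4a was the only 1 of 31 genes called, with a log2 difference of −1.38 (SE 0.28, adjusted p = 0.0264), which compares with 0.343% of all genes called lower there. That call was lost without KO ND replicate 2, KO ND replicate 3, KO HFD replicate 1, KO HFD replicate 2 or KO HFD replicate 3 (differences −1.49 to −1.22, adjusted p-values 0.0551 to 0.159). The diet effect on C4a in KO minus that in WT was −1.78 (SE 0.40, adjusted p = 0.0423), against 0.379% of all genes called lower. It was lost without WT ND replicate 1, WT ND replicate 2, WT ND replicate 3, KO ND replicate 2, KO ND replicate 3, WT HFD replicate 2, WT HFD replicate 3, KO HFD replicate 1, KO HFD replicate 2 or KO HFD replicate 3 (differences −1.90 to −1.50, adjusted p-values 0.0617 to 0.125). With the clock score of each array as a covariate it was −2.31 with an adjusted p of 0.307, and the change in KO was −1.25 with an adjusted p of 0.0885.

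C4b, which encodes the main plasma C4, had log2 values of 9.17, 9.41, 9.08 and 8.98 in TG HFD, 8.96, 9.03 and 9.45 in KO HFD and 8.89, 9.19 and 8.80 in WT HFD livers. On ND, C4b had 8.66, 8.60 and 9.05 in TG ND, 8.72, 8.61 and 8.97 in KO ND and 8.66, 8.82 and 8.52 in WT ND livers. The genotypes overlapped on both diets, and C4b was called in no comparison. Its difference between TG and WT was 0.10 on ND (95% confidence interval −0.25 to 0.45) and 0.20 on HFD (95% confidence interval −0.12 to 0.53). The copies are near-identical, so that RNA of one may bind probes of the other, and how far the probe sets separate them was not tested.

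Of the 10 nearest measured coding genes around C4a, 5 on each side, none was called between TG and WT on either diet. Between KO and WT on ND the adjoining Cyp21a1, a steroid hydroxylase of the adrenal cortex, was higher by 1.65 (adjusted p = 0.00216), and in KO it was lower on HFD than on ND by 1.56 on the log2 scale (adjusted p = 0.0145). Cyp21a1 had an overall mean of 1.27, in the range of dim signals. The neighbours were looked at after the values of C4a were seen. With genes ranked as for C1qa, those most like C4a over the 19 arrays were Mt2 (r = 0.93) and Mt1 (r = 0.91), which encode metallothioneins. Vcam1 (0.86), Slfn5 (0.86) and Ulk2 (0.85) came next. Within groups those correlations were 0.44, 0.55, 0.35, 0.28 and 0.40.

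C2, the protease that joins C4b in the classical and lectin convertase, had log2 values of 7.36, 7.73, 7.12 and 7.22 in TG HFD, 6.25, 6.11 and 6.24 in KO HFD and 5.54, 6.18 and 5.48 in WT HFD livers. On ND, C2 had 7.28, 7.10 and 7.07 in TG ND, 6.19, 6.30 and 6.41 in KO ND and 6.57, 6.37 and 6.43 in WT ND livers. TG arrays were above all KO and WT arrays on each diet, and KO and WT overlapped. C2 was higher in TG than in WT by 1.62 (SE 0.16, adjusted p = 1.97e-05) on HFD, a 3.08-fold difference. On ND the difference was 0.69 (SE 0.17, adjusted p = 0.0578) and was not called. The diet effect in TG minus that in WT was 0.93 (adjusted p = 0.167) and was not called either.

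Against KO, C2 in TG was higher by 0.85 (SE 0.17, adjusted p = 0.00710) on ND and by 1.16 (SE 0.16, adjusted p = 0.000618) on HFD. In WT liver it was lower on HFD than on ND with a log2 difference of −0.72 (SE 0.17, adjusted p = 0.0445) that was lost without WT ND replicate 1, WT ND replicate 2, WT ND replicate 3, WT HFD replicate 1 or WT HFD replicate 3 (differences −0.76 to −0.59, adjusted p-values 0.102 to 0.216). C1ra, the C1r protease that C1q sets off, had log2 values of 5.82, 5.89, 5.67 and 5.99 in TG HFD, 5.28, 4.97 and 5.38 in KO HFD and 5.01, 5.07 and 4.91 in WT HFD livers. On ND, C1ra had 5.84, 5.49 and 5.76 in TG ND, 5.12, 5.07 and 5.10 in KO ND and 5.26, 5.42 and 5.16 in WT ND livers. TG arrays stood above all KO and WT arrays on both diets. The difference between TG and WT was 0.84 (SE 0.12, adjusted p = 0.000601) on HFD and 0.41 (SE 0.13, adjusted p = 0.171) on ND, of which the second was not called. C1rb, a near-identical copy outside the 34 genes that may share its RNA, was called higher in TG than in WT by 1.13 (SE 0.17, adjusted p = 0.00154) on ND and 0.92 (SE 0.16, adjusted p = 0.00347) on HFD. Masp1, a protease of the lectin pathway, and Cfb, the protease of the alternative convertase, were called in no comparison.

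**Figure D4:**
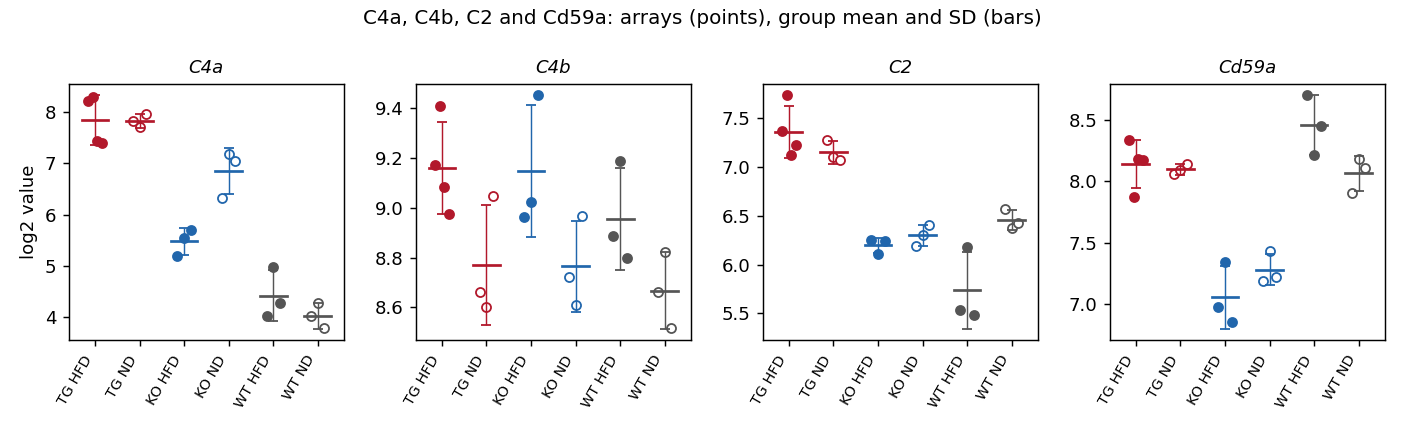
Log2 values (vertical axes, scaled for each gene) of C4a, C4b, C2 and Cd59a by group, with arrays as points and bars for the group mean with SD (4 arrays in TG HFD, 3 in the others). C4a steps down through TG, KO and WT on both diets, C4b overlaps throughout, C2 is high in TG, and Cd59a is low in KO.

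Among the 7 terminal components, 4 were called higher in TG than in WT on HFD and 0 on ND, with median differences of 0.81 and 0.15. Of all genes, 1.68% were called higher in TG on HFD and 0.924% on ND. On ND none of the 7 had TG and WT arrays apart, and on HFD all 7 did, with TG below WT in C8g and above it in the others, which compares with 15.8% of all genes apart on ND and 12.3% on HFD. Hc, which encodes C5, had log2 values of 10.73, 11.20, 10.63 and 10.67 in TG HFD, 10.44, 10.49 and 10.71 in KO HFD and 10.11, 10.16 and 10.14 in WT HFD livers. On ND, Hc had 10.58, 10.59 and 10.86 in TG ND, 10.20, 10.20 and 10.44 in KO ND and 10.77, 10.53 and 10.44 in WT ND livers. On HFD the WT arrays were the lowest and TG overlapped KO, and on ND TG overlapped WT. Hc was higher in TG than in WT by 0.67 (SE 0.14, adjusted p = 0.00996) on HFD and by 0.10 (SE 0.15, adjusted p = 0.921) on ND, where it was not called.

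C6, which binds C5b first, had log2 values of 8.31, 8.67, 7.88 and 8.01 in TG HFD, 7.45, 7.26 and 7.69 in KO HFD and 7.33, 7.49 and 7.39 in WT HFD livers. On ND, C6 had 8.06, 8.46 and 8.30 in TG ND, 7.99, 8.24 and 8.24 in KO ND and 8.23, 8.00 and 8.03 in WT ND livers. TG lay above both other genotypes on HFD and overlapped both on ND, and KO and WT arrays were lower on HFD than on ND while those of TG overlapped. C6 was higher in TG than in WT by 0.81 (SE 0.16, adjusted p = 0.00793) and than in KO by 0.75 (SE 0.16, adjusted p = 0.0172) on HFD. The difference from KO was not called without KO HFD replicate 1 or KO HFD replicate 2 (differences 0.65 to 0.74, adjusted p-values 0.0671 to 0.110). The differences between HFD and ND were −0.70 (SE 0.17, adjusted p = 0.0726) in KO and −0.69 (SE 0.17, adjusted p = 0.0663) in WT, and neither was called.

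C8 is a trimer of an alpha, a beta and a gamma chain. C8a, the alpha chain, had log2 values of 9.96, 10.39, 9.76 and 9.94 in TG HFD, 9.33, 9.48 and 9.98 in KO HFD and 9.04, 9.19 and 8.75 in WT HFD livers. On ND, C8a had 9.92, 9.77 and 10.08 in TG ND, 9.43, 9.47 and 9.68 in KO ND and 10.00, 9.56 and 9.53 in WT ND livers. WT HFD arrays were below all TG HFD arrays, and KO overlapped TG on HFD. C8a was higher in TG than in WT by 1.02 (SE 0.18, adjusted p = 0.00282) on HFD, against 0.22 on ND (adjusted p = 0.803).

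C8b, the beta chain, encoded beside C8a on chromosome 4, had log2 values of 10.67, 10.83, 10.30 and 10.61 in TG HFD, 9.51, 9.13 and 9.76 in KO HFD and 8.86, 9.84 and 8.66 in WT HFD livers. On ND, C8b had 10.59, 10.58 and 10.56 in TG ND, 9.73, 9.68 and 9.95 in KO ND and 10.59, 10.39 and 10.31 in WT ND livers. On HFD, TG arrays were above KO and WT, which overlapped, and on ND the KO arrays were the lowest while TG and WT overlapped. C8b was 2.79-fold higher in TG than in WT on HFD, by 1.48 (SE 0.22, adjusted p = 0.000692), and differed by 0.15 on ND (adjusted p = 0.925). The diet effect in TG minus that in WT was 1.34 (95% confidence interval 0.67 to 2.00, adjusted p = 0.120) and was not called.

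In WT liver C8b was lower on HFD than on ND, with a log2 difference of −1.31 (SE 0.23, adjusted p = 0.00517), where C2 and C8b were the 2 of 31 genes called lower, which compares with 0.568% of all genes. That call was lost with the clock score as a covariate (−1.29, adjusted p = 0.922) and with the 6 WT arrays fitted alone. The clock score did not overlap between the diets in WT, so the first of these fits cannot separate it from diet. Between TG and KO, C8b differed by 1.14 (SE 0.22, adjusted p = 0.00730) on HFD, a call lost without KO HFD replicate 2 (difference 0.97, adjusted p = 0.0582). On ND it differed by 0.79 (SE 0.23, adjusted p = 0.0658), without a call. C8g, the gamma chain, had group means between 9.04 in KO ND and 9.18 in KO HFD, and C9, the pore subunit, between 9.47 in WT HFD and 10.00 in TG HFD, and neither was called. C7, from stromal cells, was 4.23 in TG HFD replicate 2 and at most 3.16 in the other arrays. In TG, none of the 31 genes was called between HFD and ND, against 0.906% of all genes called there. At an unadjusted p under 0.05, 4 of 31 passed, against 10.1% of all genes.

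**Figure D5:**
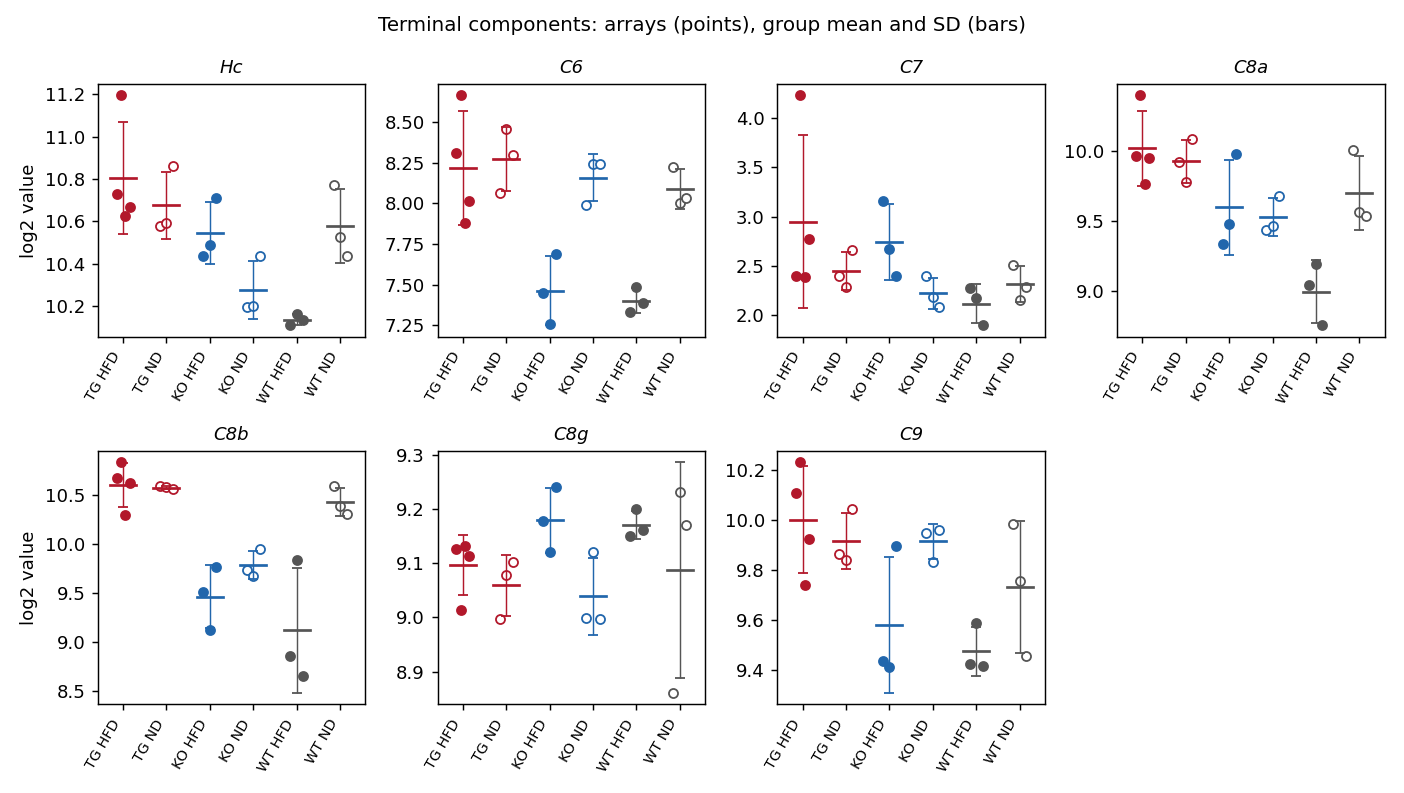
Log2 values (vertical axes, scaled for each gene) of terminal components by group, with arrays as points and bars for the group mean with SD (4 arrays in TG HFD, 3 in the others). WT HFD lies below TG HFD in Hc, C6, C8a and C8b, and below WT ND in the same genes.

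The diets and genotypes also differed in other measures. The clock score, the mean of evening clock genes minus that of morning clock genes, averaged 1.84 ± 0.31 in TG HFD, 2.18 ± 0.19 in KO HFD and 1.97 ± 0.14 in WT HFD, and −1.19 ± 0.42 in TG ND, 1.67 ± 0.19 in KO ND and −0.60 ± 0.93 in WT ND. Its arrays did not overlap between the diets in any genotype, or between KO and the other genotypes on ND. Time of day is not in the labels, and its part in those comparisons cannot be told apart from diet or genotype. There the score separates the groups, so that calls lost with it as a covariate do not show a part of the clock. Of 21 acute-phase genes, plasma proteins and others that rise in inflammation, 4 were called higher in TG than in WT on ND and 2 on HFD, with medians of 0.50 and 0.39. Of all genes, 0.924% and 1.68% were called higher there. In KO against WT, 2 of the 21 were called higher on ND and 0 on HFD, and in TG against KO 2 on ND and 1 on HFD. For KO against WT, 1.38% of all genes were called higher on ND and 43 of 22180 on HFD. For TG against KO, 2.49% were called higher on ND and 0.897% on HFD. Mt1 and Mt2, named above as most like C4a, are on the acute-phase list. Of 14 male-biased liver genes, 4 were called higher and 3 lower in TG than in WT on HFD, and 1 higher and 5 lower on HFD than on ND in WT. Beside these stand 1.68% higher and 1.88% lower of all genes in the first comparison and 0.568% lower in the second. The share called higher in the second is not given here. The same list had 1 higher and 5 lower in KO than in WT on ND, 0 higher and 2 lower on HFD, 0 higher and 4 lower on HFD than on ND in KO, and none called between TG and WT on ND. The part of the acute-phase and male-biased genes in the results on Hc, C6, C8a, C8b, C2 and C4a was not tested.

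Of the 7 measured regulators 1 was called between TG and WT, Vtn on HFD, where 1.68% of all genes were called higher. Vtn, which encodes vitronectin, a plasma protein that keeps the terminal complex out of host membranes, had log2 values of 10.96, 11.16, 10.94 and 10.90 in TG HFD, 10.60, 10.74 and 10.90 in KO HFD and 10.59, 10.77 and 10.43 in WT HFD livers. On ND, Vtn had 10.92, 10.93 and 10.88 in TG ND, 10.55, 10.56 and 10.64 in KO ND and 10.81, 10.71 and 10.68 in WT ND livers. On HFD all TG arrays were above all WT arrays. Vtn was higher in TG than in WT by 0.39 (SE 0.11, adjusted p = 0.0481) on HFD, the smallest called difference among these genes, and by 0.18 (SE 0.11, adjusted p = 0.702) on ND, without a call. The call was lost without WT HFD replicate 1, WT HFD replicate 3, TG HFD replicate 1, TG HFD replicate 2 or TG HFD replicate 3 (differences 0.31 to 0.41, adjusted p-values 0.0594 to 0.217), and also after adjustment for the clock score (0.39, adjusted p = 0.0653).

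Clu, which encodes clusterin, another inhibitor of the terminal complex, had log2 values of 8.88, 9.08, 8.69 and 8.89 in TG HFD, 8.72, 8.94 and 9.02 in KO HFD and 8.61, 8.87 and 8.68 in WT HFD livers. On ND, Clu had 8.84, 8.86 and 9.07 in TG ND, 8.77, 8.72 and 8.84 in KO ND and 8.96, 8.96 and 8.79 in WT ND livers. The genotypes overlapped, and Clu was called in no comparison. Serping1 (C1 inhibitor), Cfi (factor I, which cuts C3b and C4b), C4bp (its cofactor for C4b) and Cd55 (which breaks up convertases) were not called either. Their group means lay between 9.93 in WT HFD and 10.27 in TG HFD for Serping1, between 9.74 in TG ND and 10.16 in WT ND for Cfi, between 9.41 in WT ND and 9.98 in TG HFD for C4bp and between 4.53 in WT HFD and 5.23 in TG ND for Cd55.

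Cd59a was lower in KO liver. It encodes a membrane protein that stops C9 from forming the pore. Cd59a had log2 values of 8.34, 7.88, 8.18 and 8.17 in TG HFD, 6.98, 7.34 and 6.85 in KO HFD and 8.70, 8.21 and 8.45 in WT HFD livers. On ND, Cd59a had 8.06, 8.10 and 8.14 in TG ND, 7.19, 7.43 and 7.23 in KO ND and 7.91, 8.18 and 8.11 in WT ND livers. All KO arrays were below all TG and WT arrays on each diet. Cd59a was 2.64-fold lower in KO than in WT on HFD, with a log2 difference of −1.40 (SE 0.15, adjusted p = 0.000229), and 1.72-fold lower on ND, with −0.78 (SE 0.15, adjusted p = 0.00703). It was the only 1 of 31 genes called lower in each, which compares with 0.144% of all genes on HFD and 1.6% on ND. On HFD it ranked 3 among all 22180 genes by p. Between TG and WT it differed by 0.03 (SE 0.15, adjusted p = 0.979) on ND and −0.31 (SE 0.14, adjusted p = 0.299) on HFD, without a call.

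The adjoining Cd59b, a copy outside the 34 genes that may share RNA with the Cd59a probes, was lower in KO than in WT on ND, with a log2 difference of −0.90 (SE 0.20, adjusted p = 0.0174). On HFD it differed by −0.68 (SE 0.20, adjusted p = 0.238), without a call. Of the 10 nearest measured coding genes around Cd59a, Caprin1 was the other 1 called between KO and WT on ND (−0.54, adjusted p = 0.0082), and 0 of 10 were called on HFD. Adjusted for the clock score, Cd59a differed between KO and WT by −1.39 on HFD (adjusted p = 0.000431) and −0.68 on ND (adjusted p = 0.737).

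Between TG and KO, 7 of 31 genes were called higher in TG on ND and 8 on HFD, which compares with 2.49% and 0.897% of all genes. None was called lower, against 1.71% and 1.46% of all genes. Cfp, Fcna, C1ra, C2 and Cd59a were called on both diets. Cd59a was higher in TG by 0.81 (SE 0.15, adjusted p = 0.00396) on ND and 1.08 (SE 0.14, adjusted p = 0.000357) on HFD, while C1ra was higher by 0.59 on ND (adjusted p = 0.0110) and 0.63 on HFD (adjusted p = 0.00755). C1qa (0.88) and C1qb (1.19) were called on ND only, and C4a, C6 and C8b on HFD only, without a test of the diets against each other. With the clock score as a covariate 0 of 31 genes were called on ND, and 2 of all genes. The comparisons with KO and with WT share the TG arrays.

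The calls of single genes in TG against KO also moved with single arrays. On ND, C1qa was not called without KO ND replicate 2, KO ND replicate 3, TG ND replicate 2 or TG ND replicate 3 (differences 0.73 to 0.79, adjusted p-values 0.102 to 0.129), C1qb without KO ND replicate 2 or TG ND replicate 3 (differences 1.00 to 1.01, adjusted p-values 0.0519 to 0.0578) and C1ra without TG ND replicate 1 or TG ND replicate 3 (differences 0.52 to 0.56, adjusted p-values 0.0503 to 0.0639). On HFD, C1ra was not called without KO HFD replicate 2 (difference 0.51, adjusted p = 0.0621). With the compared arrays fitted alone, the calls between TG and WT were lost on ND for C1qa (adjusted p = 0.0588) and C1qc (adjusted p = 0.0945), and on HFD for C1qa (adjusted p = 0.0514), C6 (adjusted p = 0.0898), Hc (adjusted p = 0.0934) and Vtn (adjusted p = 0.248). With the arrays of WT HFD replicate 1 and of TG HFD replicate 2 both left out, 9 of 31 genes were called higher in TG than in WT on HFD and 297 of all 22180 genes were called in either direction, against 13 of 31 and 791 of all genes with every array. That setting was added after the data were seen. In all, 14 of the 31 genes were called in at least 1 comparison or interaction and 17 in none. That count was not made over all genes, so it does not show whether complement stands out.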

How the data were processed

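RNA of 19 whole livers was hybridised to Affymetrix arrays, 1 array per animal. The authors deposited a table of values per probe set, read here as log2 values already normalized between arrays. Per the submitters' processing notes the tools were affy, RMA and limma, with no version or role given. The log2 base and the normalization were inferred from those names and the range of the values. The build and annotation used upstream are not given in the sources used here. Array medians lay between 0.983 and 1.075.

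Of 41345 probe sets, those annotated to 1 symbol were kept, and each of 22180 genes was read from its probe set of highest mean. No filter on dim genes was set, and 56.5% had a mean below 2. One model of the 6 group means was fitted to all arrays and genes with limma 3.58.1 (lmFit, eBayes) in R 4.3.3. The residual degrees of freedom were 13, and the prior added 4.76. P-values are two-sided and adjusted by Benjamini-Hochberg over all genes within each of 9 comparisons and 2 interactions. An adjusted p under 0.05 is a call. The procedure was tested on simulated data.

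Genes were given by array if called in any comparison, with C4b and Clu added, and related complement genes and the 5 genes most like C4a or C1qa were named by rule. Those 5 were drawn from genes with a mean of at least 2, without predicted genes, small RNAs and some other name families. The text names a selection of the related genes. Members, lists, neighbours, motifs and promoters were chosen with earlier results of these data known. Alternatives were a model of the compared arrays alone, a filter at a mean of 2, the mean of probe sets, a further quantile normalization, trend and robust variance, the clock score as a covariate and each array left out. Arrays have no read depth, and their number limits the precision.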

Additional observations from a re-analysis of the deposited data

Results flagged for a closer look

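In TG HFD, the only group of 4 arrays and the only one where a single far array was tested, 6 of 52 complement genes had 1 array far from the other 3. Chance flags about 1 in 20. C1qc was 5.21 in replicate 1, against 4.68 to 4.71 in the others. C8g was 9.01 in replicate 2, against 9.11 to 9.13. Mbl2 was 9.04 in replicate 3, against 8.61 to 8.67. C3ar1 was 3.37 in replicate 4, against 3.87 to 3.91. C1s1, a protease of the C1 complex, was 2.65 in replicate 3, against 2.96 to 3.00. C5ar2, the second receptor of C5a, was 4.37 in replicate 2, against 3.96 to 4.00. The far arrays were not the same array in each gene.

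The effect of diet on C4a differed between KO and WT in a test of the difference itself, a call that most omissions of a single array ended. HFD minus ND was −1.38 in KO and 0.40 in WT, so that the effect in KO minus that in WT was −1.78 on the log2 scale (SE 0.40, adjusted p = 0.0423 from the limma model). In KO all 3 HFD arrays were below all 3 ND arrays. The call was lost in 10 of 12 omissions of a single array (differences −1.90 to −1.50, adjusted p-values 0.0617 to 0.125) and after adjustment for the clock score (−2.31, adjusted p = 0.307).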

How the results depend on the processing

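Of 41 calls of complement genes, 19 were kept in every setting and with every array left out, 20 were kept in every setting other than leaving out an array, and none changed direction. With the clock score as a covariate, 12 of 31 genes were called between TG and WT on HFD (13 otherwise, the one lost being Vtn), 1 between KO and WT on ND (2 otherwise), 0 between TG and KO on ND (7), 0 between HFD and ND in KO (1), 0 between HFD and ND in WT (2) and 0 for the diet effect in KO minus that in WT (1). With the compared arrays fitted alone, 5 were called between TG and KO on HFD (8), 0 between HFD and ND in KO and 0 between HFD and ND in WT. With genes of a mean of at least 2 only, 2 were called between HFD and ND in KO and 4 in WT, and trend and robust variance gave 2 in KO. Leaving out each array in turn gave 5 to 6 calls for TG against WT on ND, 11 to 14 on HFD, 2 to 2 for KO against WT on ND and 1 to 1 on HFD. It gave 4 to 7 for TG against KO on ND, 5 to 8 on HFD, 0 to 0 for the diets in TG, 0 to 1 in KO and 1 to 2 in WT. For the diet effect minus that in WT it gave 0 to 2 in TG, the 2 without WT HFD replicate 2, and 0 to 1 in KO. The causes were not tested. The clock score did not overlap between the diets in any genotype, or between KO and the other genotypes on ND. Calls lost there with the score as a covariate do not show a part of the clock. No paired analysis was possible because the labels give no replicate numbers shared between groups. Dim signals limit Itgam, Itgax and C5ar1, whose differences can be understated.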

Other observations

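Among 21 measured complement genes outside the 34, 3 were called higher in TG than in WT on ND and 4 on HFD, and none lower. Of all genes, 0.924% were called higher there on ND and 1.68% on HFD. Beside C1rb, Vsig4 and Itgb2 the call on HFD was Susd4, a membrane regulator of complement. Susd4 had log2 values of 6.55, 5.95, 6.18 and 6.34 in TG HFD, 4.40, 4.29 and 4.42 in KO HFD and 4.29, 5.74 and 5.19 in WT HFD livers. On ND it had 6.44, 6.49 and 6.11 in TG, 4.51, 4.48 and 4.79 in KO and 5.22, 5.55 and 5.49 in WT livers. TG arrays were above all others of their diet, and KO arrays were below WT arrays on ND and overlapped them on HFD. The difference between TG and KO was 1.76 on ND (adjusted p = 0.000451) and 1.88 on HFD (adjusted p = 0.000224). The difference between TG and WT was 1.18 on HFD (adjusted p = 0.00752) and 0.93 on ND, where it was not called (adjusted p = 0.0875).

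Cfhr2, a relative of plasma complement regulators, was lower on HFD than on ND in WT liver, with a log2 difference of −0.71 (SE 0.17, adjusted p = 0.0416). Its values in WT were 6.44, 6.49 and 6.86 on HFD, against 7.66, 7.15 and 7.09 on ND, without overlap. In TG the difference between the diets was −0.06 and in KO −0.32, and neither was called.

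The array with the highest value within its group was not the same for each gene, but in TG HFD replicate 2 was the highest for 21 of the 31 genes, and in TG ND replicate 3 was the highest for 22 of 31.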
